A study of Mus musculus with 6 samples.

Results

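Imprinted genes were compared between control and Ybx1-KO neural progenitor cells (NPCs). The list held 35 imprinted genes given by name, and all 35 had a row among the 51733 gene symbols of the count tables. By the parental allele they are known to be expressed from, 22 were placed in a paternally expressed class and 9 in a maternally expressed class. The other 4, Grb10, Ube3a, Blcap and Gnas, were kept apart because their expressed allele is known to depend on the tissue or the isoform. The cells came from the neural tubes of mouse embryos, labelled as strain C57BL/6, at embryonic day 13.5 (E13.5), of either sex, and were sorted for the Sox2-eGFP reporter allele Sox2tm1Hoch (from a mixed B6 and 129S1 stock), which both genotypes carry. Controls were wildtype siblings, and the knockout embryos were homozygous for Ybx1tm1Ley in every cell, so direct effects on NPCs and effects through other tissues of the embryo cannot be told apart. Total RNA of the sorted cells was made into 3 control and 3 Ybx1-KO libraries, named control 1 to 3 and Ybx1-KO 1 to 3.

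Imprinted genes are expressed mainly from the copy inherited from one parent. A differentially methylated control region, marked in the germ line, sets the active copy, and the zinc-finger protein Zfp57 with its partner Trim28 keeps that mark in the embryo. The genes lie in clusters that often pair a coding gene with a long noncoding RNA, and many act on fetal growth and on the supply and size of neural progenitors. The deposited counts per gene sum over both parental copies. Every value below is therefore the total RNA of a gene, and a switched-on silent copy was not measured.

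The libraries held 20841990 to 23883542 counts on genes in control and 4743279 to 13321952 in Ybx1-KO NPCs, and levels are given as CPM (counts scaled to a common library total), with library sizes corrected by TMM, edgeR's trimmed-mean scaling. At these depths 3 counts correspond to 0.126 to 0.632 CPM before scaling. The deleted gene, Ybx1, stood at 239, 531 and 306 CPM in control and at 126, 55.3 and 9.66 CPM in Ybx1-KO libraries 1, 2 and 3. Ybx1-KO 3 stood apart, with 7.22% of its tallied read pairs on genes against 18.0 to 24.7% in the other 5 libraries, and its 1729 sensory receptor genes of the nose and tongue, which NPCs do not use, summed to 3069 CPM where the others had 24.4 to 105 CPM. Its part in the results was not tested beyond leaving it out. The neural progenitor markers were detected in every library, and the sum of the 9 markers lay between 1107 and 1874 CPM. Controls 1 and 2 share the first number of their sample titles, as do Ybx1-KO 1 and 2, and no number pairs a control with a Ybx1-KO library. Nothing in the labels says that the libraries are separate embryos, so the p-values measure only the spread between these libraries.

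Of the 35 imprinted genes, 32 had a mean FPKM (counts per kilobase of exon, scaled to the total on genes) above 1 in at least one genotype and were tested. None of the 32 was called differentially expressed, for which edgeR's quasi-likelihood test had to give an adjusted p below 0.05 with a change of more than 1.5-fold, and the smallest edgeR adjusted p was 0.443. DESeq2 and limma-voom called none of the 32 either. Over all 21330 genes tested, 0% were called by edgeR and by limma-voom, and 214 genes (1.00%) by DESeq2. The study, which used voom with the same thresholds, reported genes called in both directions, and why the fit here called none was not tested. At an unadjusted edgeR p below 0.05, 2 imprinted genes were higher, Mirg and Ndn, where 6.96% of all tested genes were, and 2 were lower, Usp29 and Snrpn, where 4.26% were. The groups did not overlap for 5 of them. All 3 Ybx1-KO libraries lay above all controls for Mirg, against 4.99% of all tested genes, and below all controls for Meg3, Rian, Usp29 and Sgce, against 8.16%. Without Ybx1-KO 3 these counts were 5 above and 4 below, where the shares over all tested genes rose to 13.8% and 16.5%. Without Ybx1-KO 1 they were 3 and 8 (10.8% and 12.2% over all tested genes), and without control 3 they were 1 and 9 (7.99% and 14.4%). Of the 32 genes, 21 had a log2 fold change below 0, against 38.7% of all tested genes, and their median log2 fold change was -0.13 against 0.31 over all tested genes. Without Ybx1-KO 3 the 2 medians were 0.08 over 30 imprinted genes and 0.01 over all tested genes.

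**Figure D1:**
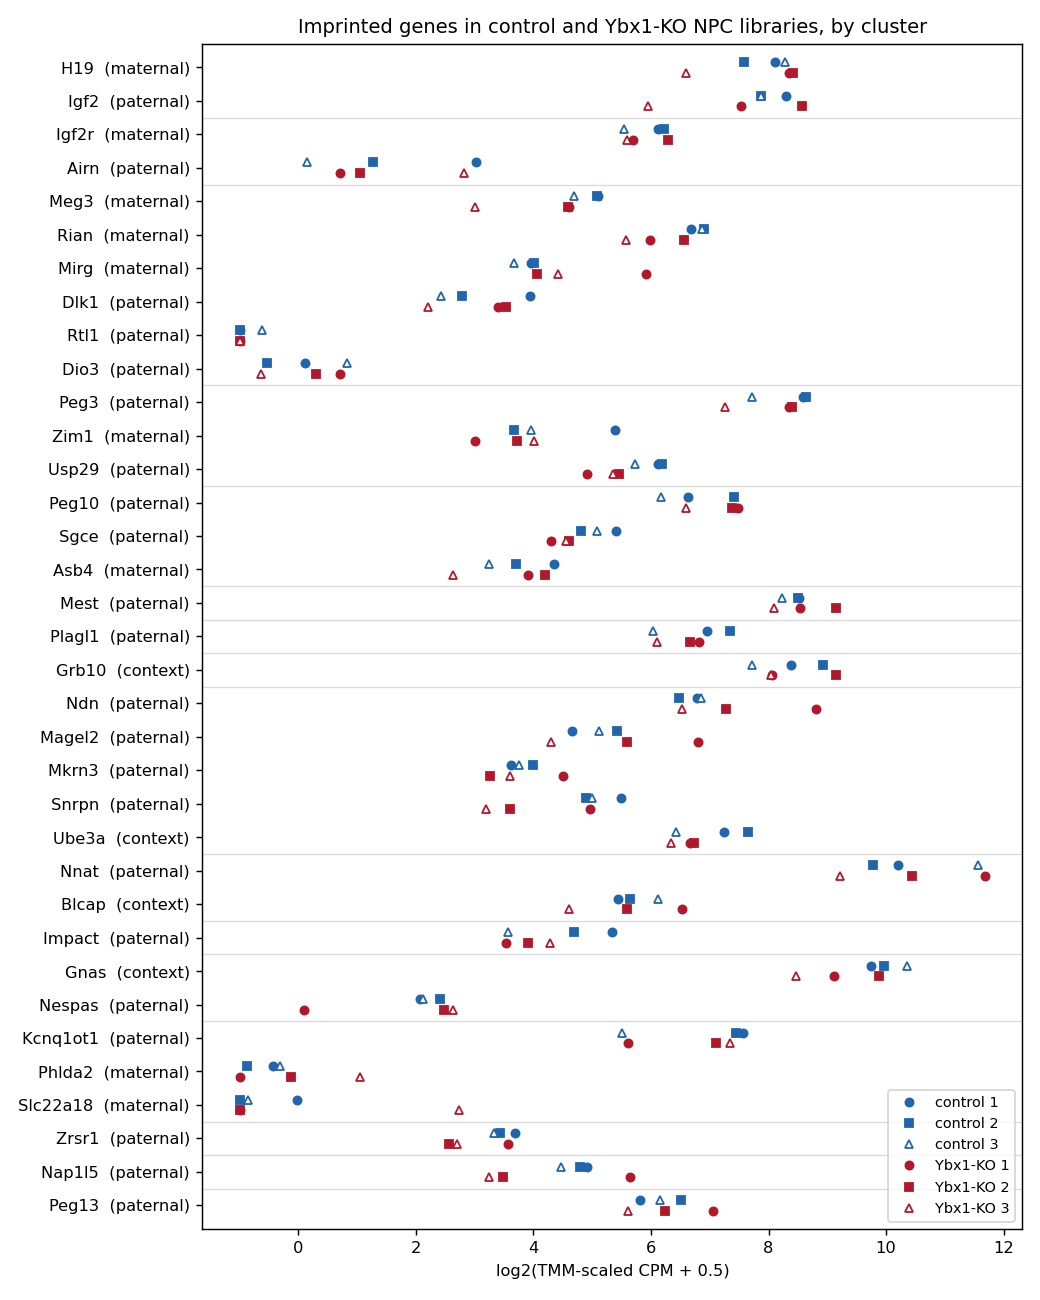
Level of each of the 35 imprinted genes in each library, on a log2 scale of TMM-scaled CPM with 0.5 added, grouped by cluster with grey lines between clusters and the allele class in brackets. Blue symbols are control and red symbols Ybx1-KO libraries, and in most rows the 2 colours overlap.

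The imprinted genes differed widely in level. By FPKM, averaged over the 6 libraries, Nnat, a small membrane proteolipid of developing neurons, led with 917, followed by the growth-restraining noncoding RNA H19 with 98.7, Mest with 91.4, Gnas with 70.4 and Ndn with 45.5. Igf2, Grb10, Peg3, Peg10 and Blcap followed with 37.7, 37.3, 21.8, 19.1 and 17.3. Among these 10, Nnat and H19 were the only neighbours in order that did not overlap, since Nnat ranged from 431 to 1874 FPKM over the libraries and H19 from 57.9 to 137. The rest of these neighbours overlapped. At the lower end, Rtl1, Dio3 and Phlda2 had a mean FPKM under 1 in both genotypes and were not tested.

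The maternally expressed noncoding RNAs of the Dlk1-Dio3 cluster on chromosome 12 carried 3 of the 5 differences without overlap, and they did not go the same way. Meg3 (ENSMUSG00000021268, chr12:109541001-109571726, plus strand), a long noncoding RNA at the head of the cluster's maternal transcripts, stood at 33.7, 33.2 and 25.3 CPM in controls and 23.8, 23.5 and 7.53 CPM in Ybx1-KO libraries 1, 2 and 3. Rian (ENSMUSG00000097451, chr12:109603940-109661716, plus strand), the host of many small nucleolar RNAs, stood at 102, 119 and 117 CPM in controls and at 62.8, 94.3 and 47.3 CPM in Ybx1-KO libraries. Both were lower in every Ybx1-KO library than in any control, Meg3 by the narrower gap. For Meg3 the means were 30.7 ± 4.73 and 18.3 ± 9.30 CPM (SD, n = 3 each) and the log2 fold change was -0.75 (SE 0.45, edgeR adjusted p = 0.467). Meg3 passed the filter on FPKM through control NPCs alone. For Rian the means were 113 ± 9.17 and 68.1 ± 23.9 CPM (SD, n = 3 each), with a log2 fold change of -0.72 (SE 0.39, edgeR adjusted p = 0.451). Neither passed the test. With all genes scaled by total counts, the groups of Meg3 overlapped. Those of Rian did not. Rian also kept its groups apart in FPKM without TMM scaling, at 5.60 to 5.85 in control and 3.58 to 3.85 in Ybx1-KO libraries.

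Mirg (ENSMUSG00000097391, chr12:109729764-109749460, plus strand), the noncoding host transcript of a microRNA cluster further along the same strand, went the other way. It stood at 15.0, 15.6 and 12.2 CPM in controls and at 60.0, 16.2 and 20.9 CPM in Ybx1-KO libraries 1, 2 and 3. Ybx1-KO 1 was by far the highest and Ybx1-KO 2 lay just above the highest control. Its log2 fold change was 1.18 (SE 0.48, edgeR adjusted p = 0.443), with means of 14.3 ± 1.79 and 32.4 ± 24.04 CPM (SD, n = 3 each). Without Ybx1-KO 1 its log2 fold change fell to 0.29 (edgeR adjusted p = 0.760). Without Ybx1-KO 2, where 3.89% of all tested genes were called, Mirg was called at 1.58 (edgeR adjusted p = 0.0165). With all genes scaled by total counts, its groups overlapped. The counts of a gene do not depend on the scaling when they are set against those of a neighbour in the same library. The ratio of Mirg to Meg3 counts was 0.444, 0.471 and 0.485 in controls and 2.52, 0.690 and 2.77 in Ybx1-KO libraries. With Mirg above and Meg3 below all controls in CPM, the groups of this ratio could not overlap, so it only restates those differences. The ratio of Rian to Meg3 ran from 3.03 to 4.62 in controls and from 2.64 to 6.28 in Ybx1-KO libraries and overlapped.

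RefSeq (GRCm38.p6) places 14 microRNA hairpins with 26 mature sequences within Mirg, and 4 of the hairpins lie wholly inside its annotated exons. The mature sequences annotated for these 4 are shown because the counted exons contain these hairpins whole, 5′ to 3′, with the seed (bases 2 to 8) in capitals. Their first base lies at chr12:109734145 and their last at chr12:109743784.
miR-134-5p: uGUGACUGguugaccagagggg
miR-134-3p: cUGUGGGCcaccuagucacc
miR-485-3p: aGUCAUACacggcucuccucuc
miR-377-5p: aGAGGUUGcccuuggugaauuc
miR-377-3p: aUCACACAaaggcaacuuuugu
miR-410-5p: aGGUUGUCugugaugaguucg
miR-410-3p: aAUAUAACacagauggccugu
Each of these had a seed of its own. Across the 26 mature sequences there were 25 seeds, the shared one being that of miR-453 and miR-496a-5p, whose hairpins lie outside the Mirg exons.
miR-453: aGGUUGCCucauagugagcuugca
miR-496a-5p: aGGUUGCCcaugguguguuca
The exons also cover parts of the other hairpins, such as 58 bases of Mir3072 and 12 of Mir412. The libraries were made from total RNA and count the host transcript, not mature microRNAs. Of the 14 hairpins, 4 had any count in their own row, and these were not the 4 inside the exons. They were Mir453, Mir154, Mir541 and Mir412, with 16, 12, 2 and 1 counts over all libraries.

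The paternally expressed genes of the same cluster were low. Dlk1 (chr12:109452823-109463336), a Notch-related membrane protein that is known to act on progenitor renewal, stood at 14.9, 6.41 and 4.88 CPM in controls and at 9.98, 11.1 and 4.12 CPM in Ybx1-KO libraries, with overlapping groups and a log2 fold change of -0.05 (SE 0.60, edgeR adjusted p = 0.977). Rtl1, a retrotransposon-derived gene of the placenta, had 3 counts in control 3 and 0 in each other library. Dio3, which inactivates thyroid hormone, had 12, 4 and 25 counts in controls and 10, 7 and 1 in Ybx1-KO libraries. Differences in these 2 were not detectable at this depth.

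The window around the Meg3 start, from RefSeq, spans chr12:109540746-109541045 (GRCm38.p6, plus strand). It is shown because Meg3 leads the maternal transcripts of the cluster, with the CCAAT box in capitals. The Y-box family, to which Ybx1 belongs, was named for binding DNA with this box.
Meg3: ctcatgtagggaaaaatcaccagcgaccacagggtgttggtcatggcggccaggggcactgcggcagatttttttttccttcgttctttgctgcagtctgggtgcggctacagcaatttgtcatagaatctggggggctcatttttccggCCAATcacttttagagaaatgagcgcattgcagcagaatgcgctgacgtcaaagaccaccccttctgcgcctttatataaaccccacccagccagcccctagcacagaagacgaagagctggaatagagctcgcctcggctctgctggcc
The letters CCAAT were searched on both strands, along with TGCCGC, the letters known to be bound by Zfp57 when methylated. This Meg3 window held 1 match to each. A second RefSeq window of Meg3, chr12:109545148-109545447, held no match to either and 1 CpG. The window of Rian, chr12:109603695-109603994, held no match to either and no CpG, and that of Mirg, chr12:109734731-109735030, held 1 CCAAT and no TGCCGC. This Mirg window lies inside the gene as counted here, which begins at chr12:109729764, and not at that start.

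In the Peg3 cluster on chromosome 7, all 3 genes tested were lower on average. Usp29 (ENSMUSG00000051527, chr7:6730578-6967219, plus strand), a deubiquitinase gene expressed from the paternal copy, stood at 69.2, 72.7 and 52.2 CPM in controls and at 29.6, 43.2 and 40.2 CPM in Ybx1-KO libraries. The groups did not overlap, and unlike for Meg3 the lowest value was that of Ybx1-KO 1. The means were 64.7 ± 11.0 and 37.7 ± 7.15 CPM (SD, n = 3 each) and the log2 fold change was -0.78 (SE 0.37), with an unadjusted edgeR p of 0.0490 and an edgeR adjusted p of 0.444. When all genes were scaled by total counts, the Usp29 groups overlapped. Zim3, which lies on the other strand across 2582 bases of the Usp29 exons, did not overlap between the groups either, as described below. Read density, as counts summed over all libraries per exon base, was compared in 247 pairs with an inner gene at least 90% inside exons of the opposite strand. The median ratio of inner to outer gene was 1.09, with quartiles of 0.346 and 1.93. Sense and antisense counts of overlapping exons thus could not be told apart, and this includes the bases shared by Usp29 and Zim3.

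Peg3 (chr7:6703892-6730431, minus strand), a paternally expressed zinc-finger gene that starts beside Usp29 and is read in the other direction, stood at 383, 398 and 211 CPM in controls and at 326, 337 and 153 CPM in Ybx1-KO libraries. The groups overlapped, with a log2 fold change of -0.28 (SE 0.47, edgeR adjusted p = 0.787). Zim1, the maternally expressed zinc-finger gene of the cluster, stood at 41.2, 12.2 and 15.0 CPM in controls and at 7.48, 12.7 and 15.6 CPM in Ybx1-KO libraries, so its log2 fold change of -0.94 (SE 0.51, edgeR adjusted p = 0.451) had control 1 alone far above the rest. The ratio of Usp29 to Peg3 counts was 0.181, 0.183 and 0.248 in controls and 0.0907, 0.128 and 0.263 in Ybx1-KO libraries and overlapped through Ybx1-KO 3.

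The Peg3 and Usp29 starts face away from each other across a common promoter, and their RefSeq windows share 263 of 300 bases. The Usp29 window is shown, at chr7:6730333-6730632 (GRCm38.p6, plus strand), because a single stretch of DNA serves both genes, with each CCAAT box in capitals.
Usp29: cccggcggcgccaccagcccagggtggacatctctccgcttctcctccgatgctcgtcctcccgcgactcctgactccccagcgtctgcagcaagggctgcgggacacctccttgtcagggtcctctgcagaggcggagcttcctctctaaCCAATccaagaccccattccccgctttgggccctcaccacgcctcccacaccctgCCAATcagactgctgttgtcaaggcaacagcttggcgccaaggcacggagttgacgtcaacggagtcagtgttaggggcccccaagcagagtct
It holds 2 CCAAT boxes and 17 CpGs and no TGCCGC. For 28 of the 35 genes RefSeq gave 42 windows in all. CCAAT was found in 14 of them (33.3%), against 37.4% of 32851 RefSeq windows of the same length, and TGCCGC in 10 (23.8%), against 11.6%. The median number of CpGs was 13, against 7 over all windows. Some windows of the same gene overlap, such as those of Mest from chr6:30737800 and chr6:30737803, which both count among the matches to TGCCGC. Such matches describe the letters and not binding.

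**Figure D2:**
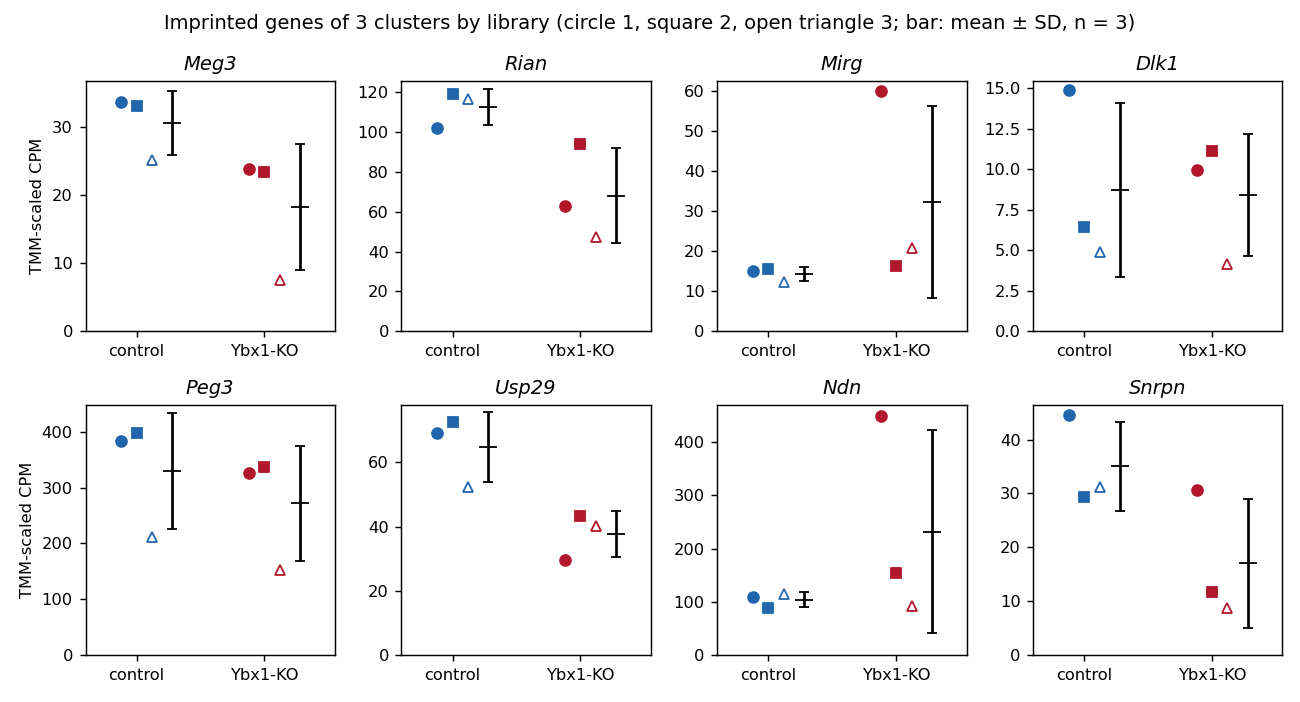
TMM-scaled CPM of imprinted genes of the Dlk1-Dio3 cluster (Meg3, Rian, Mirg, Dlk1), the Peg3 cluster (Peg3, Usp29) and the Snrpn-Ube3a cluster (Ndn, Snrpn), with 1 symbol per library (circle 1, square 2, open triangle 3) and the mean ± SD (n = 3) beside them. Meg3, Rian and Usp29 lie lower and Mirg higher in all 3 Ybx1-KO libraries, and Ndn is lifted by Ybx1-KO 1 at 450 CPM.

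The Snrpn-Ube3a cluster on chromosome 7 corresponds to the human region of Prader-Willi and Angelman syndromes. Its paternally expressed genes split. Ndn (chr7:62346569-62350262, plus strand), which encodes necdin, a MAGE protein that restrains the cell cycle of neural cells, stood at 109, 88.8 and 114 CPM in controls and at 450, 155 and 91.2 CPM in Ybx1-KO libraries. The neighbouring MAGE gene Magel2 stood at 24.7, 42.3 and 34.0 CPM in controls and at 110, 47.6 and 19.2 CPM in Ybx1-KO libraries. For both, Ybx1-KO 1 and 2 lay above the controls and Ybx1-KO 3 did not. The log2 fold change was 1.16 for Ndn (SE 0.52, edgeR adjusted p = 0.444) and 0.81 for Magel2 (SE 0.51, edgeR adjusted p = 0.477), and Ybx1-KO 1 held 64.7% of the Ndn level summed over the Ybx1-KO libraries and 62.3% of that of Magel2. Without Ybx1-KO 1 the log2 fold change of Ndn fell to 0.19 (edgeR adjusted p = 0.873) and that of Magel2 to -0.05. Without Ybx1-KO 2, where 3.89% of all tested genes were called, Ndn was called at 1.43 (edgeR adjusted p = 0.0463). The ratio of Magel2 to Ndn counts ran from 0.226 to 0.476 in controls and from 0.210 to 0.307 in Ybx1-KO libraries, so that the 2 genes kept overlapping proportions while their levels varied. The third neighbour, the ubiquitin ligase gene Mkrn3, stood at 11.7 to 15.5 CPM in controls and at 22.2, 9.03 and 11.7 CPM in Ybx1-KO libraries, again with Ybx1-KO 1 the highest.

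Snrpn (chr7:59982495-60140219, minus strand), a splicing component at the cluster's control region, was lower on average. It stood at 44.5, 29.4 and 31.2 CPM in controls and at 30.7, 11.6 and 8.67 CPM in Ybx1-KO libraries, and the groups overlapped only through Ybx1-KO 1. The means were 35.05 ± 8.25 and 17.0 ± 11.97 CPM (SD, n = 3 each), with a log2 fold change of -1.04 (SE 0.47, edgeR adjusted p = 0.444) and an unadjusted edgeR p of 0.0403. Without Ybx1-KO 1, where 2.86% of all tested genes were called, it was called at a log2 fold change of -1.85 (edgeR adjusted p = 0.00817), while without Ybx1-KO 3 it stood at -0.70 (edgeR adjusted p = 0.534). Its exons share 216 bases with Snurf, which is read from the same transcript, so its count is uncertain. Ube3a, the ubiquitin ligase that is silenced on the paternal copy in mature neurons, stood at 151, 201 and 85.8 CPM in controls and at 101, 106 and 80.7 CPM in Ybx1-KO libraries, with overlapping groups and a log2 fold change of -0.60 (SE 0.42, edgeR adjusted p = 0.510). Its exons overlap the antisense transcript Snhg14 over 1803 bases. The sum of 8 neuron markers was 3070, 4625 and 3319 CPM in controls and 3402, 3158 and 1267 CPM in Ybx1-KO libraries, and its part in the values of this cluster was not tested. In such bulk samples fewer cells of a type and less RNA per cell cannot be told apart.

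The growth genes of the Igf2 axis overlapped between the groups. H19 (chr7:142575529-142578143, minus strand), the maternal noncoding RNA, stood at 275, 192 and 311 CPM in controls and at 324, 342 and 96.0 CPM in Ybx1-KO libraries. Igf2 (chr7:142650766-142666816, minus strand), the paternally expressed fetal growth factor, stood at 315, 234 and 233 CPM in controls and at 185, 380 and 61.1 CPM in Ybx1-KO libraries. For both, Ybx1-KO 2 was the highest library and Ybx1-KO 3 the lowest of all 6. The log2 fold changes were -0.03 for H19 (SE 0.50, edgeR adjusted p = 0.983) and -0.32 for Igf2 (SE 0.54, edgeR adjusted p = 0.788), and without Ybx1-KO 3 they turned to 0.37 and 0.12. Without Ybx1-KO 2, Igf2 stood at -1.01 (edgeR adjusted p = 0.249), with both remaining Ybx1-KO libraries below all controls. The ratio of Igf2 to H19 counts, which share an enhancer and a control region, was 1.15, 1.22 and 0.748 in controls and 0.571, 1.11 and 0.636 in Ybx1-KO libraries. Markers of mesenchyme and meninges, cells in which both genes are strongly expressed, summed to 970, 169 and 251 CPM in controls and to 127, 158 and 92.2 CPM in Ybx1-KO libraries over 8 genes, of which 2 were lower without overlap, and their part in these values was not tested.

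Igf2r, the receptor that clears Igf2 from the cell surface, stood at 69.0, 73.7 and 45.8 CPM in controls and at 51.5, 77.6 and 47.5 CPM in Ybx1-KO libraries, with a log2 fold change of -0.09 (SE 0.38, edgeR adjusted p = 0.924). Airn, the paternal antisense RNA that silences Igf2r in cis, was low, at 7.58, 1.92 and 0.610 CPM in controls and at 1.13, 1.56 and 6.54 CPM in Ybx1-KO libraries. It passed the filter through Ybx1-KO NPCs alone. Grb10 (chr11:11930508-12038683), an adaptor that restrains insulin and Igf signalling and is known to switch to its paternal copy in neurons, stood at 334, 485 and 209 CPM in controls and at 266, 568 and 263 CPM in Ybx1-KO libraries. Plagl1, a zinc-finger transcription factor that acts on other imprinted genes, stood at 124, 162 and 64.8 CPM in controls and at 112, 102 and 67.9 CPM in Ybx1-KO libraries. The groups overlapped for all 4 genes of this paragraph, and the log2 fold changes of Airn, Grb10 and Plagl1 were -0.14, 0.09 and -0.32.

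In the Peg10-Sgce cluster on chromosome 6, neighbours that are read from a shared start region differed. Sgce (ENSMUSG00000004631, chr6:4674350-4747207, minus strand), which encodes epsilon-sarcoglycan and underlies myoclonus dystonia, stood at 41.8, 27.6 and 33.4 CPM in controls and at 19.3, 23.9 and 23.0 CPM in Ybx1-KO libraries. The highest Ybx1-KO value was below the lowest control, with means of 34.3 ± 7.12 and 22.1 ± 2.45 CPM (SD, n = 3 each) and a log2 fold change of -0.64 (SE 0.37, edgeR adjusted p = 0.464). Its groups overlapped when all genes were scaled by total counts. Peg10 (chr6:4747306-4760517, plus strand), a retrotransposon-derived gene needed by the placenta, stood at 98.3, 171 and 71.5 CPM in controls and at 179, 166 and 96.0 CPM in Ybx1-KO libraries. Peg10 overlapped, with a log2 fold change of 0.37 (SE 0.44, edgeR adjusted p = 0.697), and the ratio of Sgce to Peg10 counts overlapped too, at 0.425, 0.162 and 0.467 in controls and 0.108, 0.144 and 0.240 in Ybx1-KO libraries. Asb4, the maternally expressed gene at the edge of this cluster, ranged from 5.68 to 19.9 CPM over all libraries.

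Mest (chr6:30723547-30748465, plus strand), a hydrolase gene of mesoderm and brain, stood at 367, 361 and 300 CPM in controls and at 369, 569 and 273 CPM in Ybx1-KO libraries, with a log2 fold change of 0.24 (SE 0.46, edgeR adjusted p = 0.819). In FPKM, which does not use the TMM factors, its groups did not overlap, at 69.5 to 93.0 in control and 97.3 to 104 in Ybx1-KO libraries. Its exons overlap Copg2 on the other strand over 912 bases. Nnat (chr2:157560078-157562522) stood at 1185, 882 and 3044 CPM in controls and at 3298, 1384 and 591 CPM in Ybx1-KO libraries, a wide spread within each genotype. Blcap, in whose intron Nnat lies, stood at 43.1, 49.7 and 68.7 CPM in controls and at 91.4, 47.5 and 23.9 CPM in Ybx1-KO libraries. For both, control 3 led the controls, Ybx1-KO 1 was the highest library and Ybx1-KO 3 the lowest, with log2 fold changes of 0.05 (SE 0.69) and 0.01 (SE 0.45).

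Gnas (chr2:174284320-174346744, plus strand), which encodes the stimulatory G protein subunit, stood at 859, 997 and 1306 CPM in controls and at 555, 938 and 355 CPM in Ybx1-KO libraries. The log2 fold change was -0.77 (SE 0.53, edgeR adjusted p = 0.509), and Ybx1-KO 2 overlapped the controls. In FPKM the groups did not overlap, at 76.8 to 107 in control and 47.2 to 60.6 in Ybx1-KO libraries. The predicted gene Gm20721, antisense to 1469 bases of Gnas exons, had 17774 counts in control 1 where Gnas had 17905, so the counts of Gnas in these tables cannot be separated by strand. Nespas, the paternal antisense RNA of the locus, ranged from 0.567 to 5.68 CPM over the libraries.

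The remaining genes overlapped between the groups. Kcnq1ot1 (chr7:143203458-143296549), the paternal noncoding RNA that silences its cluster, stood at 189, 173 and 45.1 CPM in controls and at 48.4, 138 and 162 CPM in Ybx1-KO libraries. Its exons span 93092 bases, so its FPKM was low, at 2.03, 1.66 and 0.442 in controls and 0.541, 1.07 and 2.58 in Ybx1-KO libraries. In Ybx1-KO 3, Phlda2 and Slc22a18 stood at 2.07 and 5.34 FPKM, and the part of background in its Kcnq1ot1 value was not tested. The known maternally expressed targets of Kcnq1ot1 differed in level. Cdkn1c, a cell cycle inhibitor on the other list of imprinted genes and named after its values were seen, stood at 369, 521 and 267 CPM in controls and at 318, 475 and 144 CPM in Ybx1-KO libraries, with overlap. Phlda2 and Slc22a18 were low. Phlda2 had 5, 1 and 6 counts in controls and 0, 4 and 11 in Ybx1-KO libraries, and Slc22a18 had 10, 0 and 1 counts in controls and 0, 0 and 43 in Ybx1-KO libraries. Slc22a18 passed the filter through Ybx1-KO 3 alone, so its log2 fold change of 3.46 (SE 2.38, edgeR adjusted p = 0.510) is the count of a single library. Impact, a translation regulator of neurons on chromosome 18, stood at 40.0, 25.4 and 11.3 CPM in controls and at 11.1, 14.5 and 18.9 CPM in Ybx1-KO libraries, with a log2 fold change of -0.78 (SE 0.47, edgeR adjusted p = 0.467). Of the retrogenes that lie in introns of a host gene, Zrsr1 (in Commd1) had a log2 fold change of -0.50 and Nap1l5 (in Herc3) of -0.19, and Peg13, a noncoding RNA inside Trappc9, had one of 0.23. Nap1l5 stood at 29.6, 27.3 and 21.6 CPM in controls and at 49.3, 10.7 and 8.95 CPM in Ybx1-KO libraries.

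The allele classes gave similar summaries. The median log2 fold change was -0.16 over 20 tested paternally expressed genes, -0.11 over 8 maternally expressed genes and -0.30 over the 4 genes whose allele varies. Of the paternally expressed genes 7 were higher and 13 lower on average, and of the maternally expressed genes 2 were higher and 6 lower. Ybx1-KO 3 was the lowest of the 6 libraries for 16 of the 32 tested genes and the highest for 2, while Ybx1-KO 1 was the highest for 9 (Mirg, Peg10, Ndn, Magel2, Mkrn3, Nnat, Blcap, Nap1l5 and Peg13). Control 1 was the highest for 10. The CPM summed over all 35 genes was 5016 to 6578 in controls and 6954, 5733 and 2668 in Ybx1-KO libraries 1, 2 and 3.

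**Figure D3:**
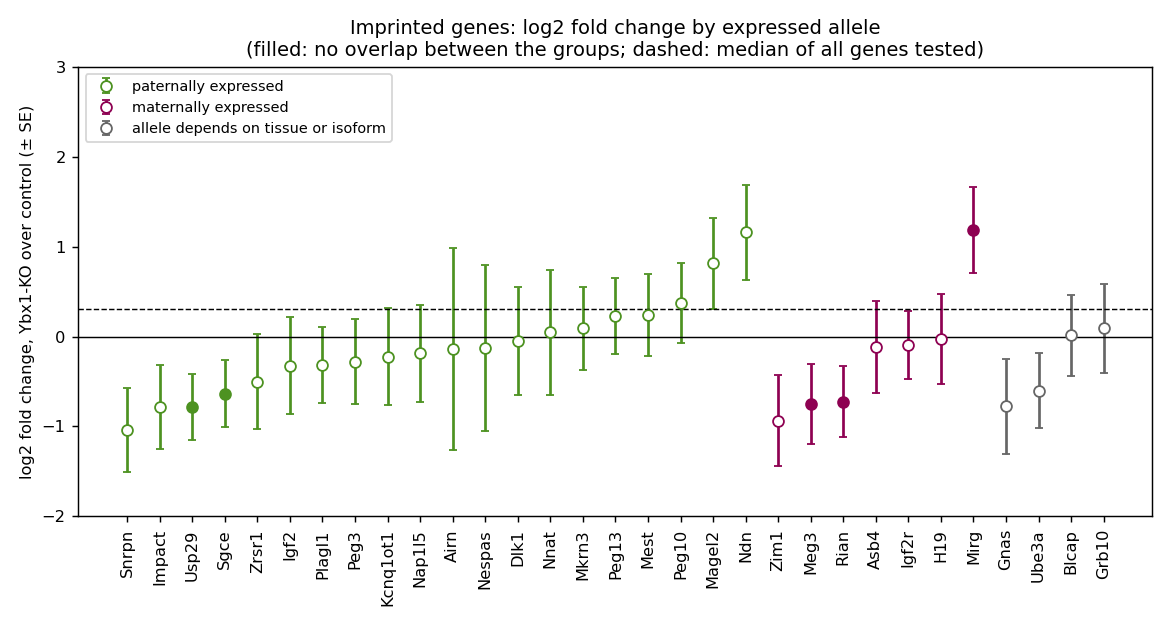
Log2 fold change of Ybx1-KO over control with its standard error from edgeR for 31 of the 32 tested imprinted genes, ordered within each allele class. Filled points are the 5 genes without overlap between the groups, the dashed line is the median of all 21330 tested genes at 0.31, and Slc22a18, at 3.46 with an SE of 2.38, is left out to keep the scale.

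Of 15 ratios between genes of the same cluster, 12 had counts for both genes in every library. Of these, 1 did not overlap between the genotypes, that of Mirg to Meg3, which follows from Mirg lying above and Meg3 below all controls in CPM. The mean log2 ratio was -1.10 ± 0.06 in control and 0.76 ± 1.12 in Ybx1-KO NPCs (SD, n = 3 each). The ratio of Dlk1 to Meg3 was 0.442, 0.193 and 0.193 in controls and 0.419, 0.473 and 0.547 in Ybx1-KO libraries, overlapping through control 1. The ratio of Nespas to Gnas spread the most among Ybx1-KO libraries, from 0.00102 to 0.0160.

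**Figure D4:**
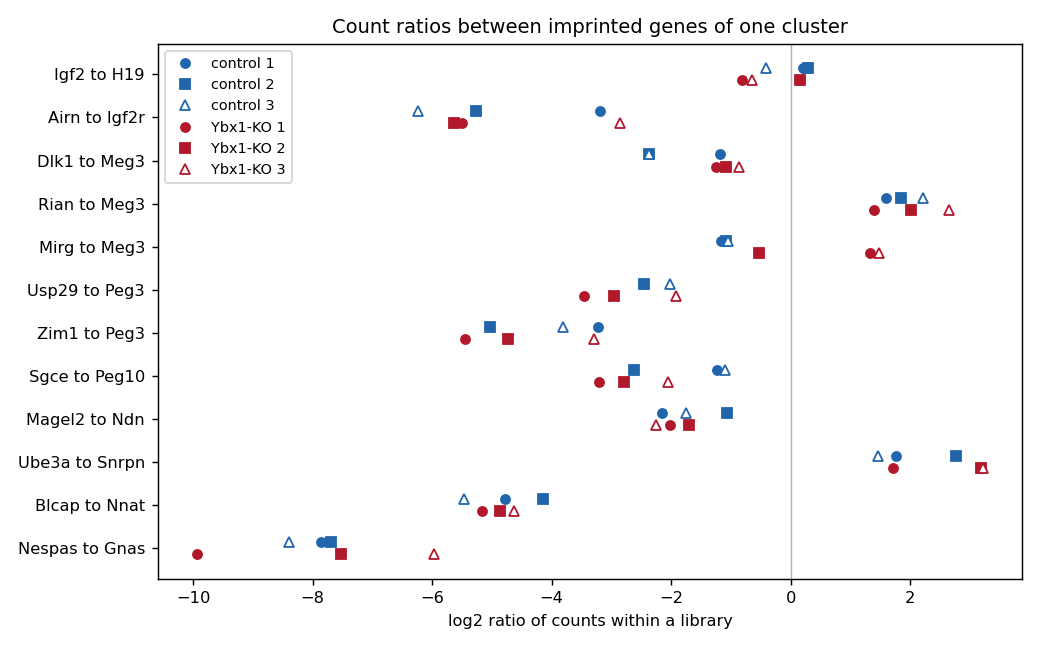
Log2 ratio of the counts of 2 imprinted genes of the same cluster within each library, with blue symbols for control and red symbols for Ybx1-KO libraries. The ratio of Mirg to Meg3 is the only one of the 12 whose genotypes do not overlap, with controls between 0.444 and 0.485 before the log. It could not overlap, since Mirg lay above and Meg3 below all controls in CPM.

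Other imprinted genes were read from a list of 45, of which 42 had a row and 26 were tested. None of the 26 was called, 13 were higher and 13 lower on average, and their median log2 fold change was 0.03. The groups did not overlap for 6 of them, with 2 higher and 4 lower, where 4.99% and 8.16% of all tested genes were. In FPKM, which does not use the TMM factors, only Zim3 and Inpp5f of these genes stayed without overlap. Zim3, a zinc-finger gene of the Peg3 cluster, had the largest change of the 6, at 17.4, 32.0 and 21.1 CPM in controls and at 2.04, 9.35 and 6.96 CPM in Ybx1-KO libraries (log2 fold change -1.94, SE 0.54, edgeR adjusted p = 0.325). It was called without Ybx1-KO 1, without Ybx1-KO 2 and with no filter on level, where 2.86%, 3.89% and 0.451% of all tested genes were. Inpp5f, a phosphoinositide phosphatase, stood at 266, 245 and 208 CPM in controls and at 159, 155 and 65.8 CPM in Ybx1-KO libraries. Casd1, a sialic acid acetyltransferase next to Sgce, stood at 53.6, 48.6 and 44.0 CPM in controls and at 34.6, 43.2 and 31.4 CPM in Ybx1-KO libraries, and Ppp1r9a, the neuronal scaffold neurabin of the same chromosomal region, at 96.7, 115 and 77.3 CPM against 71.5, 65.0 and 72.5 CPM. Sgce, Casd1 and Ppp1r9a thus each lay lower in CPM in every Ybx1-KO library, with edgeR adjusted p-values of 0.464, 0.580 and 0.550. In FPKM the groups of each overlapped, at 9.95 to 13.3 in control and 7.74 to 11.5 in Ybx1-KO libraries for Casd1. For Ppp1r9a these ranges were 4.85 to 7.09 and 3.23 to 7.40. Other tested genes of the region overlapped in CPM, with log2 fold changes of -0.12 for Asb4, 0.06 for Pon2 and 0.37 for Peg10.

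The higher genes were Tssc4 and Peg12. Tssc4, a splicing-related gene of the Kcnq1ot1 cluster, stood at 14.01, 9.08 and 18.0 CPM in controls and at 69.5, 20.2 and 18.5 CPM in Ybx1-KO libraries (log2 fold change 1.40, SE 0.51, edgeR adjusted p = 0.429). Tssc4 was called without Ybx1-KO 2, where 3.89% of all tested genes were. Peg12, a paternally expressed gene beyond Mkrn3, stood at 5.47, 10.9 and 7.42 CPM in controls and at 17.6, 13.3 and 11.4 CPM in Ybx1-KO libraries (log2 fold change 0.83, SE 0.49, edgeR adjusted p = 0.467). Dcn, the proteoglycan decorin of connective tissue, had the smallest p of the list although its groups overlapped, and is named for its values, at 84.4, 4.26 and 15.4 CPM in controls and at 1.36, 4.05 and 4.26 CPM in Ybx1-KO libraries (log2 fold change -3.43, SE 0.82, edgeR adjusted p = 0.236). Control 1, its highest library, is also the library with the highest sum of mesenchyme and meninges markers, and their part in the Dcn values was not tested. DESeq2 called Dcn, where 1% of all tested genes were called. So did edgeR without control 2 (0.339% of all tested genes), without Ybx1-KO 1 (2.86%), without Ybx1-KO 2 (3.89%) and with no filter (0.451%).

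Of 9 proteins known to keep or read imprints, all 9 were tested and none was called, with 4 higher and 5 lower on average. Zfp57, the zinc-finger protein that binds methylated TGCCGC at imprinted control regions, lay lower in every Ybx1-KO library, at 164, 95.0 and 91.6 CPM in controls and at 22.3, 57.2 and 28.4 CPM in Ybx1-KO libraries. The means were 117 ± 41.1 and 36.0 ± 18.6 CPM (SD, n = 3 each), and the log2 fold change was -1.70 (SE 0.45, edgeR adjusted p = 0.287). DESeq2 called it, where 1% of all tested genes were called, as did edgeR without Ybx1-KO 2, where 3.89% were. Uhrf1, which guides the maintenance methyltransferase Dnmt1 to newly replicated DNA, lay higher in every Ybx1-KO library, at 28.8, 65.2 and 44.9 CPM in controls and at 74.5, 114 and 66.6 CPM in Ybx1-KO libraries (log2 fold change 0.88, SE 0.41, edgeR adjusted p = 0.444). Of the rest of the list, named after their values were seen, Zfp445, a second zinc-finger protein that keeps imprints, stood at 115, 110 and 56.4 CPM in controls and at 39.3, 73.5 and 45.5 CPM in Ybx1-KO libraries and overlapped, as did Trim28, at 130, 238 and 172 CPM in controls and 260, 298 and 189 CPM in Ybx1-KO libraries. Dnmt1, Setdb1, Ctcf and Smchd1 had log2 fold changes from -0.45 to 0.37, all with overlap. Dppa3, a protein that protects imprints in the early embryo, had the largest log2 fold change of the list, 2.95 (SE 1.91, edgeR adjusted p = 0.490), with 0, 24 and 0 counts in controls and 66, 8 and 4 in Ybx1-KO libraries, and it overlapped.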

How the data were processed

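Reads from stranded total RNA libraries (3 control, 3 Ybx1-KO) were mapped and counted on genes by the authors, with HTSeq 0.6.1p1 per the submitters' processing notes, which also name GRCm38.p5. Raw counts per gene symbol were deposited, with no normalization or pooling. The aligner and the strand setting are not given in the sources used here. The counter's tallies of unassigned pairs stayed out of library sizes and tests.

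Counts were TMM-scaled and tested with edgeR 4.0.16 (quasi-likelihood, Benjamini-Hochberg over all genes tested) in R 4.3.3. Genes entered with a mean FPKM above 1 in either genotype, using exon unions and coordinates of GENCODE M21 (GRCm38). Of 51733 symbols 47624 matched by symbol and 367 by an older one. Alternatives were limma-voom (limma 3.58.1, the tool the study used), DESeq2 1.42.0, total count and RLE scaling, a filter on CPM above 1 in 3 libraries, no filter, and leaving out each library. The script was tested on simulated data first. A pass was required only at a spread between libraries lower than that of these data, so it does not measure the power here. The floors cover counting error only, while the SEs and SDs also include the spread between libraries.

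The members, allele classes and lists were chosen with earlier results of these data known. All 35 genes are named. Full values go to those without overlap or with an unadjusted p below 0.05, the 10 highest by FPKM and at least 1 per cluster, and to genes of the other lists without overlap.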

Additional observations from a re-analysis of the deposited data

How the results depend on the processing

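All values here are log2 fold changes or counts of genes, beside 12 alternatives, and 15 of the 32 tested genes kept their direction under all 12. Slc22a18 kept its direction under the 10 alternatives in which it was tested. Leaving out 1 library at a time called 0 to 2 imprinted genes, placed 1 to 5 above (5 without Ybx1-KO 3, against 13.8% of all tested genes) and 4 to 9 below all controls (9 without control 3, against 14.4%, and 8 without Ybx1-KO 1, against 12.2%), and called 0 to 3 other imprinted genes and 0 to 1 maintenance factor. Snrpn was the gene called without Ybx1-KO 1, where 2.86% of all tested genes were called, and Mirg and Ndn those called without Ybx1-KO 2, where 3.89% were. Without control 2, where 1 other imprinted gene was called, 0.339% of all tested genes were. The medians ran from -0.34 to 0.082 over all tested imprinted genes (above 0 without Ybx1-KO 3), from -0.38 to 0.12 over the paternally and from -0.31 to 0.049 over the maternally expressed genes.

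With total count scaling, 2 genes lay above (Mest and Ndn, against 6.00% of all tested genes) and 2 below (Rian and Gnas, against 4.83%), and the paternal median was 0.019 while that of all tested genes moved to 0.53. Without a filter 0 lay above, against 2.1% of all tested genes. DESeq2 called 1 other imprinted gene and 1 maintenance factor, where it called 1% of all tested genes. The absence of a filter gave 2 other imprinted genes, where 0.451% of all tested genes were called. Causes were not tested. The strand of the counts and the low depth of Ybx1-KO 3 limit the values, and no paired analysis was possible because the sample titles give the genotypes no number in common that could pair libraries, and the numbers 1 to 3 used here only name them.

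Directions turned under other tools and filters at small values. Under limma-voom these were Airn 0.034, Dlk1 0.062, Mkrn3 -0.0048, Nnat -0.093 and Blcap -0.15. Under DESeq2 they were H19 0.013, Airn 0.0182 and Dlk1 0.0020, and RLE scaling gave H19 0.013, Airn 0.0181 and Dlk1 0.0020. Total count scaling gave Igf2r 0.047, Airn 0.32, Nespas 0.17 and Kcnq1ot1 0.055. The CPM filter gave H19 0.045 and Dlk1 0.035, and no filter gave Grb10 -0.0015, Mkrn3 -0.013 and Blcap -0.047.

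Leaving out 1 library moved 16 genes across 0. The ranges were -0.28 to 0.37 for H19, -1.01 to 0.12 for Igf2, -0.27 to 0.049 for Igf2r, -0.62 to 1.30 for Airn, -0.33 to 0.57 for Dlk1 and -0.52 to 0.023 for Peg3. They were -0.37 to 0.24 for Asb4, -0.25 to 0.44 for Grb10, -0.054 to 1.26 for Magel2, -0.46 to 0.43 for Mkrn3 and -0.83 to 0.77 for Nnat. For Blcap they were -0.64 to 0.39, for Nespas -0.55 to 0.31, for Kcnq1ot1 -0.64 to 0.10, for Nap1l5 -1.48 to 0.23 and for Peg13 -0.29 to 0.54. Mirg ran from 0.29 (without Ybx1-KO 1) to 1.58, Ndn from 0.19 (without Ybx1-KO 1) to 1.57 and Snrpn from -1.85 to -0.70.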
